A study of Homo sapiens with 12 samples.

Results

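Small nucleolar RNA (snoRNA) host genes are transcribed units whose introns carry snoRNAs. The genes described here were the rows of the gene count table whose symbol was SNHG followed by a number, together with GAS5, ZFAS1, EPB41L4A-AS1 and DANCR, and with at least 10 counts summed over all libraries. Of 62754 genes in the table, 32 had such a symbol and 31 passed the minimum; SNHG22 was left out with 6 counts. SNHG27 with 37.99 counts and SNHG25 with 38.02 counts were the members nearest above the minimum, and both were too low for testing, so 29 members entered the test of 17115 genes. The 8 members with the most reads were SNHG29, GAS5, ZFAS1, SNHG1, SNHG16, SNHG32, SNHG15 and SNHG17.

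The cells were PC9, a human lung adenocarcinoma line with an EGFR mutation that makes it sensitive to EGFR inhibitors such as erlotinib, and all came from 1 subclonal line. The 12 libraries formed 4 groups of 3 cultures: cells wild type for TDP1 without drug (untreated WT), the same cells after 7 days with erlotinib at 1 µM (DTC, the drug-tolerant cells), the same cells after 28 days at that dose (DTEC, the expanded drug-tolerant cells), and a TDP1 knockout line named KO2 without drug (TDP1 KO). TDP1 encodes the tyrosyl-DNA phosphodiesterase that clears topoisomerase I from DNA ends. The cultures of a condition were split from 1 flask and then grown apart, and the knockout is represented by 1 line, so p-values measure the spread between such cultures. DTC and DTEC were each compared with untreated WT and with each other, and TDP1 KO was compared with untreated WT; all 3 comparisons with untreated WT use the same control libraries.

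Most snoRNAs guide chemical modification of other RNAs. Box C/D snoRNAs guide 2′-O-methylation with fibrillarin, box H/ACA snoRNAs guide pseudouridylation with dyskerin, and small Cajal body RNAs (scaRNAs) do the same work on spliceosomal RNAs. The host transcript is spliced, the snoRNA is trimmed out of the excised intron, and the remaining exons form a long RNA that mostly encodes no stable protein. Many such spliced RNAs start with a pyrimidine-rich stretch, as ribosomal protein mRNAs do, and are degraded by nonsense-mediated decay when ribosomes translate their short reading frames; GAS5 is the classic example and was found as an RNA that accumulates in growth-arrested cells.

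Annotated snoRNAs lie inside 30 of the 31 members, 151 in all; SNHG27 had none in the annotation used. SNHG14, the long imprinted transcript, alone spans 84 of them. The sequences of 4 hosted snoRNAs are shown because they define the classes by which the members are described. The letters are those of the genome in GENCODE 29 on GRCh38, on the strand of the gene. In the first 3, box C/D snoRNAs from SNHG16, SNHG32 and ZFAS1, capitals mark the C box (TGATGA) and the last CTGA, the D box. In the last, a box H/ACA snoRNA from an intron of DANCR, capitals mark the ACA that lies 3 bases before the end.
SNORD1B: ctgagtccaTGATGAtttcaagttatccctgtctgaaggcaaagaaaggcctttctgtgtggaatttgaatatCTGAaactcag
SNORD48: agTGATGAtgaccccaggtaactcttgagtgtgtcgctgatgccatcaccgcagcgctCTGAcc
SNORD12C: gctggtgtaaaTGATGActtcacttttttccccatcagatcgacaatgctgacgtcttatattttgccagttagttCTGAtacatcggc
SNORA26: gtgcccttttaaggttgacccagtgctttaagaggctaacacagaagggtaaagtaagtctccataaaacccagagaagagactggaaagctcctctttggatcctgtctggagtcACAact
The libraries were made from polyadenylated RNA, which mature snoRNAs are not. Of the 140 hosted snoRNAs with a row in the table, 126 were at 0 in all 12 libraries and 137 had at most 3 counts in every library, with a highest value of 6. The values below are those of the host gene rows, and reads of mature snoRNAs were close to absent from the table.

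Library totals ran from 25572691 to 38373679 estimated counts, and 3 counts corresponded to 0.0824 to 0.115 CPM (a gene's count divided by the normalised library total, on a common scale). TDP1 averaged 26.3 ± 1.6 CPM in untreated WT and 10.8 ± 0.647 CPM in TDP1 KO (SD, n = 3 each), with no overlap of libraries (log2 fold change −1.29 ± 0.11 SE, adjusted p = 1.3e-05 in edgeR's quasi-likelihood test). The 6 epithelial markers EPCAM, KRT8, KRT18, KRT19, CDH1 and EGFR were present in every library, and their summed level ranged over 10400 to 10900 CPM in untreated WT, over 10700 to 11400 in TDP1 KO, over 8590 to 10700 in DTEC and over 4920 to 5530 in DTC. PTPRC and CD3E of leukocytes and COL1A2 and DCN of fibroblasts had at most 5 counts in any library. The summed fibroblast list, which was nearly all COL1A1, was 7.79 to 8.83 CPM in untreated WT and 54.3 to 56.8 in DTC, and the endothelial list of PECAM1, CDH5 and VWF was 58.5 to 61.4 CPM in untreated WT and 122 to 142 in DTEC; the part of these genes in the results below was not tested. In bulk RNA, fewer cells of a kind and less RNA per cell cannot be told apart.

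Per kilobase of exon, SNHG29 stood highest in untreated WT at 71.7 CPM per kilobase, followed by ZFAS1 at 42.7, GAS5 at 30.8, SNHG1 at 30.6, SNHG32 at 23.1 and DANCR at 19.1. SNHG14, with 43324 bases of annotated exon, stood lowest at 0.0499 CPM per kilobase. SNHG29 (chromosome 17, 16438822 to 16478678, plus strand, listed in GENCODE 29 as LRRC75A-AS1) and SNHG32 (chromosome 6, 31834608 to 31839766, plus strand, listed there as the protein-coding C6orf48) carry box C/D snoRNAs. GAS5 lies on chromosome 1 at 173863900 to 173868882 on the minus strand, and ZFAS1 on chromosome 20 at 49278178 to 49295738 on the plus strand.

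The host genes did not move as 1 block after erlotinib. In DTC, 14 of the 29 tested members (48.3%) were called at an adjusted p under 0.05, where 67.3% of all genes tested were called. Higher in DTC than in untreated WT were 6 of them (SNHG31, SNHG18, SNHG20, GAS5, SNHG10 and SNHG32) and lower were 8 (SNHG17, SNHG7, SNHG15, SNHG16, DANCR, SNHG4, SNHG26 and SNHG1), against 34% and 33.3% of all genes. The median log2 fold change was 0.04 over the members and 0.06 over all genes tested. The split depends on scaling. By library totals alone 13 members were higher and 5 lower, and by upper quartiles 11 were higher and 5 lower. These settings shifted the all-gene median by 0.36 and 0.29 on the log2 scale. In them 68.4% and 68% of all genes were called, and 68.4% and 65% of those calls were higher. All 3 DTC libraries lay above all 3 untreated WT libraries for 4 members (35.1% of all genes) and below them for 7 (33.8% of all genes). Without library DTC 1, 12 members were higher and 7 lower, where 70% of all genes were called. Without library DTC 2, 4 were higher and 11 lower, where 62.7% of all genes were called.

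In DTEC, 11 of 29 members (37.9%) were called against untreated WT, where 52.3% of all genes were. GAS5, SNHG8 and SNHG21 were higher and SNHG15, SNHG26, SNHG17, SNHG12, SNHG7, SNHG4, SNHG11 and SNHG1 were lower; of all genes, 26% were called higher and 26.3% lower. The median log2 fold change was 0.04 over the members and 0.02 over all genes. By library totals alone, which shifted the all-gene median by 0.17, 6 members were higher and 5 lower. Of the calls over all genes in that setting, 63.7% were higher. Without library untreated WT 3 there were 7 member calls, 0 higher and 7 lower. All 3 DTEC libraries lay above all 3 untreated WT libraries for 9 members (31.1% of all genes) and below them for 11 (31.3% of all genes).

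Between the erlotinib groups, 10 of 29 members (34.5%) were called, where 55.4% of all genes were. SNHG16, DANCR, SNHG7 and SNHG21 were higher in DTEC than in DTC, and SNHG12, SNHG26, SNHG18, SNHG20, SNHG32 and SNHG15 were lower; 28.8% of all genes were called higher and 26.6% lower. By library totals alone and by upper quartiles, which shifted the all-gene median by −0.19 and −0.18, 2 members were higher and 10 lower. Of the calls over all genes in these settings, 37.4% and 38.7% were higher. All DTEC libraries lay above all DTC libraries for 4 members (29% of all genes) and below them for 6 (27.7% of all genes). Without library DTC 1, 2 were higher and 9 lower, and without library DTC 2, 7 were higher and 4 lower.

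**Figure D1:**
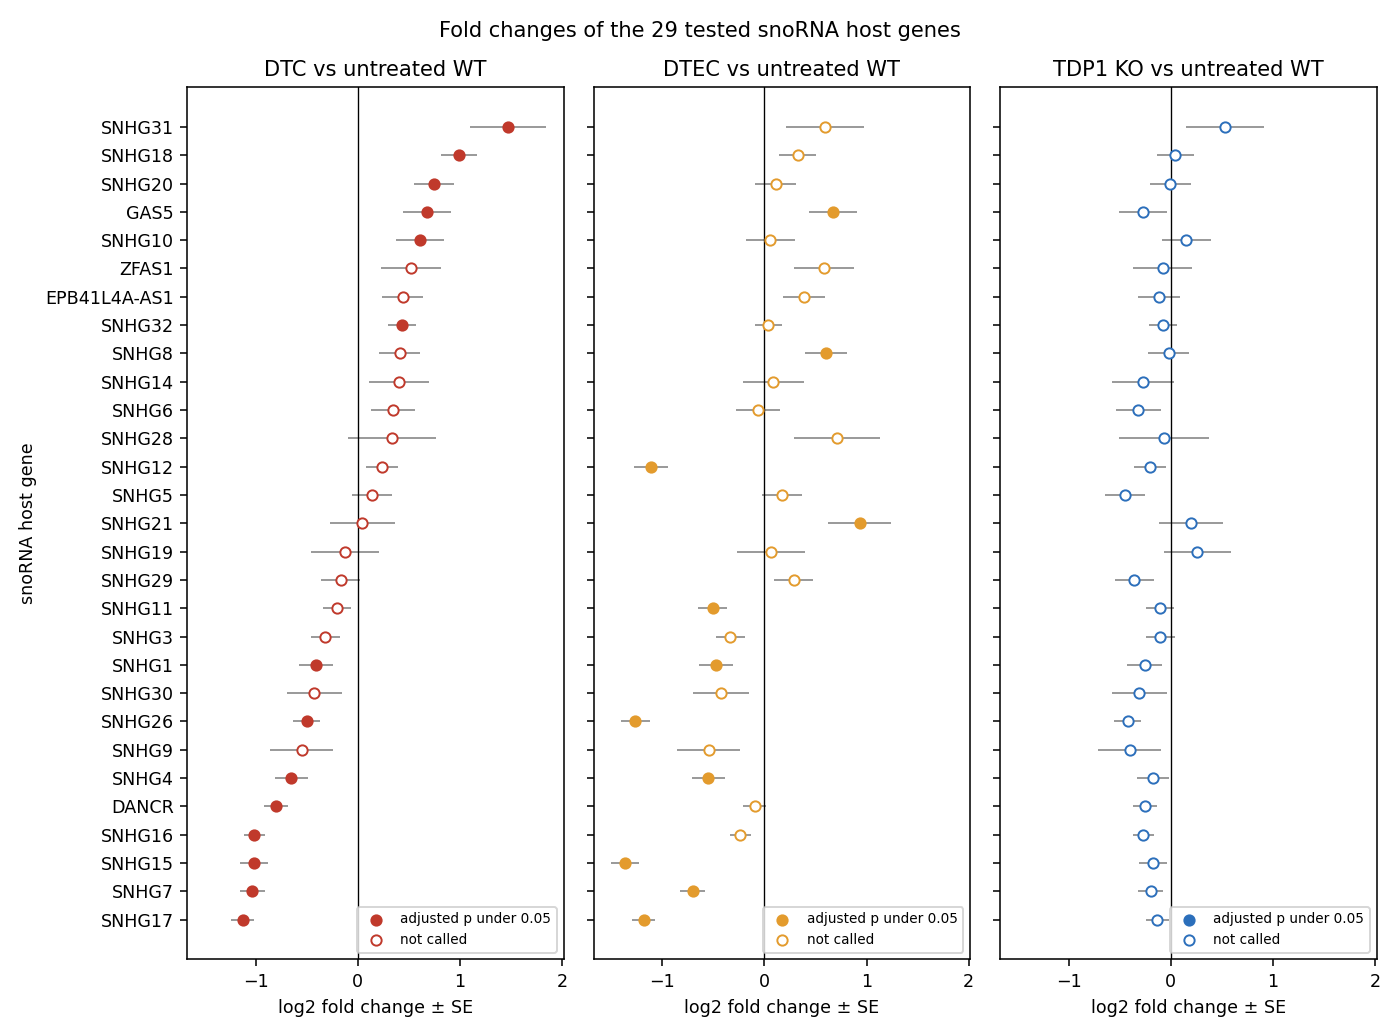
Log2 fold changes (x axis, with standard error) of the 29 tested snoRNA host genes (y axis, ordered by their value in DTC) in DTC, DTEC and TDP1 KO, each against the same 3 untreated WT libraries; filled points had an adjusted p under 0.05. SNHG17, SNHG15 and SNHG7 lie below 0 with filled points in both erlotinib groups, SNHG12 has a filled point in DTEC alone, and no point is filled in TDP1 KO.

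Among the hosts of box C/D snoRNAs, SNHG16 fell in DTC and stood higher again in DTEC. SNHG16, an abundant host of the 3 SNORD1 snoRNAs, had 94.2, 79.9 and 78 CPM in the untreated WT libraries, 43.4, 42.1 and 39.7 in DTC, and 80.4, 68.1 and 66 in DTEC. The DTC libraries lay close together and below every other library, while DTEC overlapped untreated WT. It changed on the log2 scale by −1.01 ± 0.105 (SE) in DTC (edgeR adjusted p = 9.76e-07) and had −0.23 ± 0.103 in DTEC (adjusted p = 0.0726), and DTEC exceeded DTC by 0.78 ± 0.105 (adjusted p = 2.54e-05).

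SNHG26, the host of SNORD93, fell in both erlotinib groups and was lower in DTEC than in DTC. Its libraries had 7.41, 7.25 and 7.9 CPM in untreated WT, 5.71, 5.59 and 4.66 in DTC, and 3.11, 3.21 and 3.11 in DTEC. The 3 groups did not overlap. On the log2 scale the difference was −0.50 ± 0.134 in DTC (edgeR adjusted p = 0.00429, but 0.343 by library totals alone and 0.168 by upper quartiles) and −1.26 ± 0.139 in DTEC (adjusted p = 4.46e-06), and the DTEC and DTC libraries differed by −0.76 ± 0.139 (adjusted p = 0.000366).

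SNHG18, the host of SNORD123, rose in DTC, with 6, 7.08 and 5.8 CPM in untreated WT, 8.65, 15.2 and 13.6 in DTC, and 7.8, 7.95 and 7.91 in DTEC. All DTC and all DTEC libraries lay above untreated WT. The log2 fold change was 0.99 ± 0.178 in DTC (edgeR adjusted p = 2e-04) and 0.33 ± 0.18 in DTEC (adjusted p = 0.143). DTEC was lower than DTC (−0.67 ± 0.177, adjusted p = 0.00541). With the DTEC and untreated WT libraries alone, SNHG18 was called higher in DTEC (0.355, adjusted p = 0.0406). SNHG32, the host of SNORD48 and SNORD52, had 40.6, 42.1 and 42 CPM in untreated WT, 42.3, 68.6 and 57.2 in DTC, and 44.8, 42.5 and 40.9 in DTEC. One DTC library thus lay just above the controls and the other 2 well above them, while DTEC overlapped the controls. The call in DTC was higher (0.43 ± 0.136, adjusted p = 0.0115); the lower level in DTEC than in DTC (−0.39 ± 0.136, adjusted p = 0.0245) lost its call without library DTC 2 (adjusted p = 0.0843) and with the compared libraries alone (0.0722).

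SNHG1, ZFAS1 and SNHG29 were the abundant C/D hosts with the least settled values in DTC. SNHG1, the host of SNORD22 and SNORD25 to SNORD31, had 119, 107 and 119 CPM in untreated WT, 64.5, 110 and 84.4 in DTC, and 93.5, 88.2 and 66.8 in DTEC. DTC overlapped the controls through library DTC 2, and DTEC lay below them. The calls were lower in DTC (−0.41 ± 0.17, edgeR adjusted p = 0.0455) and in DTEC (−0.47 ± 0.17, adjusted p = 0.0311), but leaving out any library of the comparison other than DTC 2 ended the DTC call (adjusted p from 0.0528 to 0.196), and the DTEC call was lost without untreated WT 1 (0.0755), untreated WT 3 (0.072) or DTEC 3 (0.11). By library totals alone SNHG1 had −0.05 in DTC (adjusted p = 0.788) and −0.30 in DTEC (adjusted p = 0.149), and by upper quartiles −0.12 (adjusted p = 0.569) and −0.36 (adjusted p = 0.102). With the replicate block the DTC call was also lost (adjusted p = 0.0509), and in all it was lost in 11 of 14 alternatives.

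ZFAS1, the host of SNORD12, SNORD12B and SNORD12C, had 101, 87.3 and 98.8 CPM in untreated WT, 68.4, 219 and 124 in DTC, and 164, 138 and 130 in DTEC. DTC ran from below the controls to above every other library, whereas all DTEC libraries were above the controls. Neither difference passed the test with all 12 libraries and TMM scaling. The log2 fold change was 0.52 ± 0.293 in DTC (95% interval −0.06 to 1.09, edgeR adjusted p = 0.137). In DTEC it was 0.59 ± 0.293 (interval 0.01 to 1.16, adjusted p = 0.113). By library totals alone ZFAS1 was called higher in DTC (0.873, edgeR adjusted p = 0.0179) and in DTEC (0.756, adjusted p = 0.0447). DESeq2 called it higher in DTEC (0.607, adjusted p = 0.0454) but not in DTC (0.554, adjusted p = 0.0569). SNHG29, the host of SNORD49A, SNORD49B and SNORD65, had 286, 260 and 263 CPM in untreated WT, 149, 328 and 242 in DTC, and 325, 321 and 341 in DTEC. Its DTC libraries again spanned the controls and its DTEC libraries lay above them. The log2 fold changes of −0.17 ± 0.194 in DTC (adjusted p = 0.458) and 0.29 ± 0.194 in DTEC (adjusted p = 0.232) did not pass the test. These standard errors draw on the spread in all 4 groups. With the DTEC and untreated WT libraries alone, ZFAS1 was called higher in DTEC (0.615, edgeR adjusted p = 0.000468). So was SNHG29 (0.317, adjusted p = 0.00479).

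The other C/D hosts were SNHG5, SNHG6, SNHG30, SNHG19 and SNHG14. With all 12 libraries and TMM scaling in edgeR, none was called in any comparison with the erlotinib groups. By library totals alone SNHG6 (0.701, edgeR adjusted p = 0.0105), SNHG5 (0.495, adjusted p = 0.0347) and SNHG14 (0.756, adjusted p = 0.0366) were called higher in DTC. In that setting SNHG6 was called lower in DTEC than in DTC (−0.592, adjusted p = 0.0318). Over the 12 tested members in the box C/D class, 2 were called higher and 3 lower in DTC, with a median log2 fold change of 0.01. In DTEC 0 were called higher and 2 lower, with a median of 0.05. Of all genes, 34% were called higher and 33.3% lower in DTC, and 26% higher and 26.3% lower in DTEC.

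**Figure D2:**
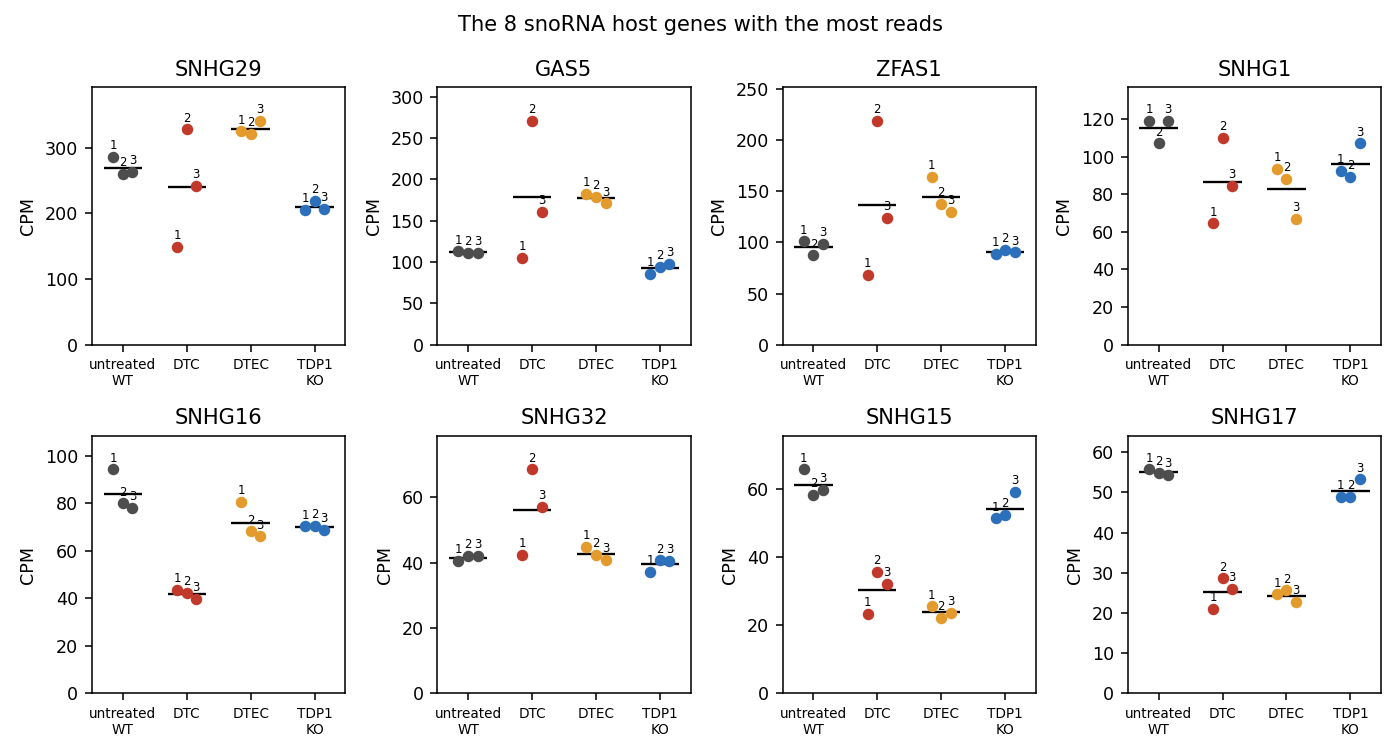
CPM (y axis, from 0) of the 8 host genes with the most reads in each library of each group (x axis); points are numbered by replicate and bars mark group means. Library DTC 2 is the highest of its group in every panel except SNHG16, and SNHG15 and SNHG17 in DTC and DTEC lie below all untreated WT and TDP1 KO libraries.

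GAS5 and SNHG12 host snoRNAs of both classes, and they differed in DTEC. GAS5, with 10 box C/D snoRNAs and the H/ACA snoRNA SNORA103 in its span, had 113, 111 and 111 CPM in untreated WT, 105, 271 and 161 in DTC, and 183, 179 and 171 in DTEC. Of the 3 DTC libraries 2 lay above the controls, as all DTEC libraries did, and the DTEC libraries lay within the range of DTC. GAS5 was called higher in DTC (0.68 ± 0.235, 1.6-fold, edgeR adjusted p = 0.0207) and in DTEC (0.67 ± 0.235, 1.59-fold, adjusted p = 0.0296). Without library DTC 2 the DTC value was 0.31 (adjusted p = 0.0622), with the compared libraries alone its adjusted p was 0.0572, and without untreated WT 2, untreated WT 3, DTEC 1 or DTEC 2 the DTEC value stayed between 0.67 and 0.68 with an adjusted p of 0.0541 to 0.0576.

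SNHG12, the host of SNORD99, SNORA16A, SNORA44 and SNORA61, had 12.1, 12.5 and 13.7 CPM in untreated WT, 11.2, 19 and 15 in DTC, and 6.18, 6.07 and 5.58 in DTEC. The DTEC libraries were the lowest of all and far from the rest. Its log2 fold change was 0.24 ± 0.16 in DTC (edgeR adjusted p = 0.204) and −1.11 ± 0.167 in DTEC (adjusted p = 7.57e-05). The difference between DTEC and DTC, −1.34 ± 0.167 (adjusted p = 1.21e-05), was the largest among the members. By library totals alone SNHG12 was called higher in DTC (0.592, edgeR adjusted p = 0.00471).

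Of the 11 tested members in the box H/ACA class, 5 were called lower in DTC and 5 in DTEC, where 33.3% and 26.3% of all genes were called lower. By library totals alone SNHG4, 1 of the 5 in each, was not called. SNHG11, 1 of the 5 in DTEC, was not called there by library totals either (−0.335, edgeR adjusted p = 0.0559). SNHG17 (chromosome 20, 38420588 to 38435353, minus strand), the host of the SNORA71 snoRNAs, had 55.7, 54.9 and 54.3 CPM in untreated WT, 21, 28.6 and 26 in DTC, and 24.6, 25.6 and 22.7 in DTEC. Both erlotinib groups lay far below the controls and overlapped each other. The log2 fold change was −1.12 ± 0.112 in DTC (2.18-fold lower, edgeR adjusted p = 6.23e-07) and −1.18 ± 0.112 in DTEC (2.26-fold lower, adjusted p = 1.13e-06).

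SNHG15, the host of SNORA9, had 65.7, 58.3 and 59.7 CPM in untreated WT, 23.2, 35.6 and 32.1 in DTC, and 25.5, 22.2 and 23.6 in DTEC. No erlotinib library reached the controls. Its difference from untreated WT was −1.01 ± 0.136 in DTC (adjusted p = 1.29e-05) and −1.36 ± 0.138 in DTEC (adjusted p = 2.01e-06); the difference between DTEC and DTC (−0.35 ± 0.137, adjusted p = 0.0429) lost its call without any 1 of DTC 2, DTC 3, DTEC 2 or DTEC 3 (adjusted p 0.0548 to 0.128), with the compared libraries alone (0.0913) and with no count filter (0.0519).

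SNHG7, the host of SNORA17A and SNORA17B, had 49.7, 49.5 and 52 CPM in untreated WT, 20.4, 27.4 and 26.1 in DTC, and 28.2, 28.9 and 36.1 in DTEC. The 3 groups did not overlap, with DTC lowest. The log2 fold change was −1.03 ± 0.123 in DTC (adjusted p = 4.02e-06) and −0.70 ± 0.122 in DTEC (adjusted p = 0.000267). The higher level in DTEC than in DTC (0.33 ± 0.123, adjusted p = 0.0329) was not called by library totals alone (0.14, adjusted p = 0.334), by upper quartiles (0.16, adjusted p = 0.317), with a mean of at least 10 counts (adjusted p = 0.0548) or with the compared libraries alone (adjusted p = 0.133). The same call was lost without DTEC 3 (0.17, adjusted p = 0.245), DTC 1 (0.20, adjusted p = 0.118) or DTC 3 (adjusted p = 0.0522).

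DANCR (chromosome 4, 52712404 to 52720351, plus strand), the host of SNORA26, had 45.8, 41.4 and 43.7 CPM in untreated WT, 21.5, 28.7 and 25.1 in DTC, and 36.2, 41.2 and 45.2 in DTEC. DTC lay below all other libraries and DTEC overlapped untreated WT. It fell in DTC by 0.80 on the log2 scale (SE 0.117, edgeR adjusted p = 3.13e-05), and DTEC exceeded DTC by 0.70 ± 0.117 (adjusted p = 0.000168); between DTEC and untreated WT the value was −0.10 ± 0.116 (95% interval −0.32 to 0.13, adjusted p = 0.512).

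SNHG8, the host of SNORA24, had 11.2, 13.4 and 10.8 CPM in untreated WT, 9.67, 20.3 and 16.9 in DTC, and 19.2, 18.4 and 16 in DTEC. DTEC lay above the controls and DTC overlapped them. The call in DTEC (0.60 ± 0.201, edgeR adjusted p = 0.0214) was lost without untreated WT 1, untreated WT 3 or DTEC 1 (adjusted p 0.0516 to 0.0641). The DTC value was 0.41 ± 0.201 (adjusted p = 0.0851). By library totals alone SNHG8 was called higher in DTC (0.765, edgeR adjusted p = 0.0041). SNHG31, the host of SNORA70I, was a low gene with 0.777, 0.236 and 0.865 CPM in untreated WT, 2.06, 1.94 and 1.29 in DTC, and 0.944, 1.03 and 0.907 in DTEC. All DTC libraries lay above the others, and the controls were spread widely through library 2. Its log2 fold change in DTC was the highest among the members (1.47 ± 0.372, adjusted p = 0.00285), and in DTEC it was 0.60 ± 0.382 (adjusted p = 0.205).

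SNHG4, the host of SNORA74A and SNORA74D, was called lower in DTC (−0.65 ± 0.159, edgeR adjusted p = 0.00225; −0.29 with adjusted p = 0.112 by library totals alone and −0.36 with 0.0651 by upper quartiles) and in DTEC (−0.55 ± 0.158, adjusted p = 0.00981; 0.0583 by library totals alone and 0.0541 without DTEC 1). SNHG11, the host of SNORA60 and SNORA71E, was called lower in DTEC (−0.50 ± 0.14, adjusted p = 0.00767; 0.0559 by library totals alone) and had −0.21 ± 0.139 in DTC (adjusted p = 0.203). SNHG3, EPB41L4A-AS1 and SNHG9 were not called in any comparison with an erlotinib group when all 12 libraries were fitted with TMM scaling in edgeR. With the DTEC and untreated WT libraries alone, SNHG3 was called lower in DTEC (−0.304, edgeR adjusted p = 0.0416). In that fit EPB41L4A-AS1 was called higher (0.417, adjusted p = 0.0187). Over the 11 H/ACA-only hosts, 1 was called higher and 5 lower in DTC, with a median of −0.55. In DTEC 1 was called higher and 5 lower, with a median of −0.50. Of all genes, 34% were called higher and 33.3% lower in DTC, and 26% higher and 26.3% lower in DTEC. No test between the C/D and H/ACA hosts was made.

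The 3 scaRNA hosts were low in all groups. SNHG20, the host of SCARNA16, had 3.14, 2.83 and 2.45 CPM in untreated WT, 4.06, 5.21 and 4.81 in DTC, and 2.89, 3.25 and 2.97 in DTEC. DTC lay above every other library and DTEC overlapped the controls. It was called higher in DTC (0.74 ± 0.196, edgeR adjusted p = 0.00395) and lower in DTEC than in DTC (−0.63 ± 0.196, adjusted p = 0.0138). SNHG10, the host of SCARNA13, averaged 1.86 ± 0.27 CPM in untreated WT, 2.84 ± 0.912 in DTC and 1.94 ± 0.042 in DTEC (SD, n = 3), and its call in DTC (0.61 ± 0.237, adjusted p = 0.0335) was lost without untreated WT 1 (0.0939) or DTC 2 (0.153), with the compared libraries alone (0.076) and with no count filter (0.0835). SNHG21, the host of SCARNA15, averaged 0.615 ± 0.128 CPM in untreated WT, 0.634 ± 0.092 in DTC and 1.18 ± 0.229 in DTEC. It was called higher in DTEC than in untreated WT (0.93 ± 0.305, adjusted p = 0.019; 0.0736 without untreated WT 3, 0.0739 without DTEC 1 and 0.0891 with no count filter) and higher than in DTC (0.89 ± 0.304, adjusted p = 0.0228; 0.0571 without DTC 1, 0.0881 without DTC 3, 0.0964 without DTEC 1, 0.0609 by library totals alone, 0.0592 by upper quartiles and 0.0969 with no count filter). SNHG28, whose annotated snoRNA has no class name, was not called in any comparison.

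The DTC libraries differed from one another more than those of the other groups did. Over the 18 members of at least 10 CPM, the median coefficient of variation among replicates was 24.7% in DTC, 5.99% in untreated WT, 8.53% in DTEC and 4.77% in TDP1 KO, where the corresponding medians over all genes of that level were 14.2%, 6.23%, 9.03% and 4.35%. Library DTC 2 had the highest value of its group for 25 of 29 members (35.5% of all genes), and library DTC 1 the lowest for 23 (42.6% of all genes). Summed over members, the 3 DTC libraries had 680, 1370 and 978 CPM, against 1040 to 1130 in untreated WT and 1090 to 1140 in DTEC.

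Ribosomal protein genes were ordered likewise, with a median log2 level of −1.05, −0.07 and −0.36 relative to untreated WT in DTC 1, 2 and 3. The box C/D core proteins were not ordered in that way, with −1.70, −1.87 and −1.79. Mitochondrially encoded transcripts made up 4.43%, 5.41% and 5.22% of the counts in these libraries and 2.5% to 2.77% in untreated WT. The part of ribosomal protein RNA level or of mitochondrial share in the spread of the host genes was not tested.

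**Figure D3:**
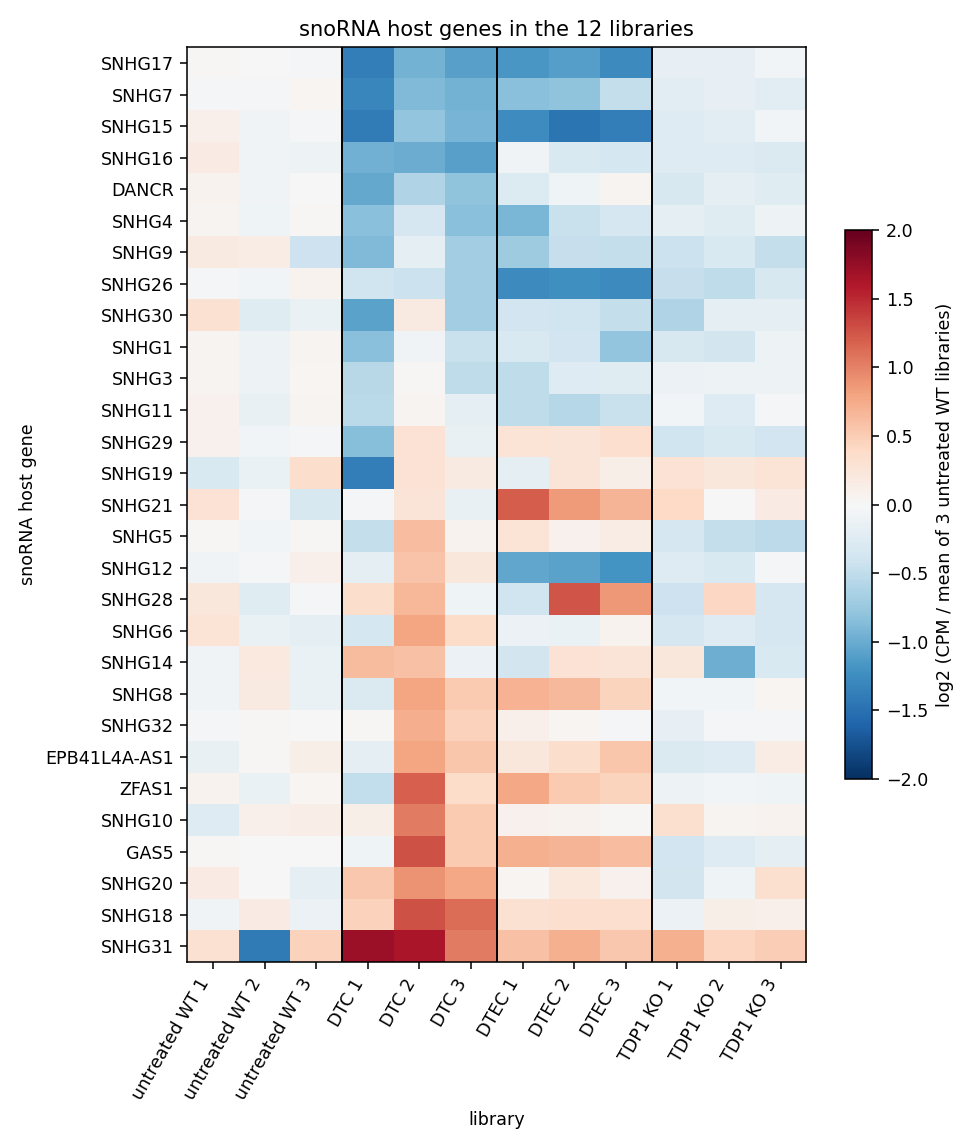
Heat map of the log2 ratio of CPM to the untreated WT mean (colour, blue lower and red higher) for the 29 tested host genes (rows, ordered by the fold change in DTC) in the 12 libraries (columns). Library DTC 2 is the reddest of its group, being highest for 25 of 29 members, while SNHG17, SNHG7 and SNHG15 are blue in all DTC and DTEC libraries.

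**Figure D4:**
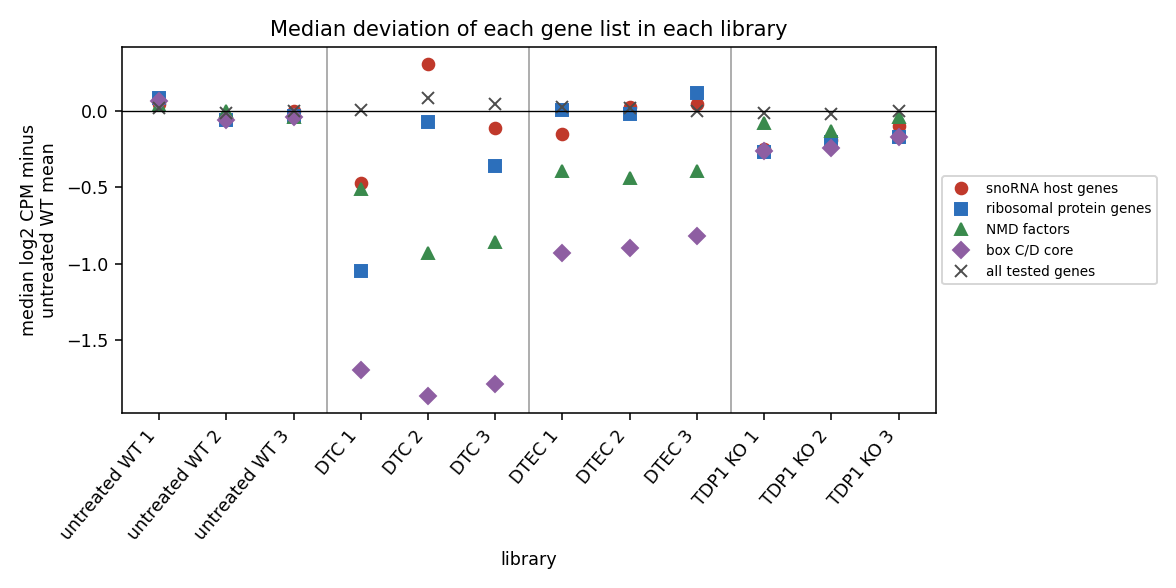
Median log2 difference from the untreated WT mean (y axis) over the snoRNA host genes, ribosomal protein genes, nonsense-mediated decay (NMD) factors, box C/D core genes and all tested genes in each library (x axis). In DTC 1, 2 and 3 the host genes lie at −0.47, 0.31 and −0.11 and the ribosomal protein genes at −1.05, −0.07 and −0.36.

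In TDP1 KO, no host gene passed the test. The count was 0 of 29 in edgeR and 0 in DESeq2, where 4.31% of all genes were called in edgeR, 2.76% higher and 1.55% lower. An unadjusted p under 0.05 was reached by 4 members (16.6% of all genes), all with lower values in TDP1 KO: SNHG26 (−0.42 ± 0.134), SNHG5 (−0.45 ± 0.196), SNHG16 (−0.27 ± 0.103) and DANCR (−0.25 ± 0.116), with edgeR adjusted p of 0.103, 0.265, 0.192 and 0.298. The log2 fold change was negative for 24 members (82.8%, against 51.7% of all genes), and the median was −0.18 over the members and −0.01 over all genes. All 3 TDP1 KO libraries lay below all 3 untreated WT libraries for 10 members (19.9% of all genes), and above them for 0 (15.8% of all genes).

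The abundant hosts show the size of these differences. SNHG29 had 205, 219 and 207 CPM in TDP1 KO against 260 to 286 in untreated WT, and GAS5 had 86.1, 93.7 and 98.1 against 111 to 113. Neither set overlapped its controls. Their log2 fold changes were −0.36 ± 0.194 (edgeR adjusted p = 0.39) and −0.27 ± 0.235 (adjusted p = 0.62), with standard errors that draw on the spread in all 4 groups. SNHG17 had 48.8, 48.8 and 53.2 CPM (−0.13 ± 0.11), SNHG15 51.3, 52.3 and 59 (−0.18 ± 0.134), and SNHG1 92.4, 89.1 and 107 (−0.26 ± 0.17).

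The other abundant hosts were closer to the controls: ZFAS1 had 89.1, 92.5 and 90.2 CPM (−0.08 ± 0.293) and SNHG32 37.3, 40.7 and 40.5 (−0.07 ± 0.136), both overlapping untreated WT. SNHG16 had 70.2, 70.6 and 68.7 CPM, below all 3 controls. When the test was fitted to the 6 untreated WT and TDP1 KO libraries alone, 7 members were called, all lower (SNHG29, GAS5, SNHG1, SNHG16, DANCR, SNHG5 and SNHG26), where 17.5% of all genes were called. In that fit SNHG29 had −0.33 (adjusted p = 0.00138) and GAS5 −0.25 (adjusted p = 0.013).

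Ribosomal protein genes had a median of −0.22 in TDP1 KO, with 80 of 82 negative and 0 called, and the 5′ TOP translation genes a median of −0.21, with 19 of 19 negative and 0 called. In TDP1 KO 1, 2 and 3 the median log2 level relative to untreated WT was −0.25, −0.19 and −0.10 over the host genes and −0.27, −0.20 and −0.17 over the ribosomal protein genes. Both lists thus lay below untreated WT in all 3 libraries, and the part of the one in the other was not tested.

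The starts of 7 members lie within 1000 bases of the start of a protein-coding gene on the other strand, and the partner's values stand beside theirs. SNHG18 and SEMA5A, a semaphorin gene whose start lies 125 bases away, were both higher in DTC: SEMA5A averaged 34.6 ± 1.5 CPM in untreated WT and 118 ± 36 in DTC (SD, n = 3; log2 fold change 1.77 ± 0.166, edgeR adjusted p = 3.65e-07). SEMA5A was also higher in TDP1 KO (60.9 ± 5.62 CPM, 0.82 ± 0.164, adjusted p = 0.0116), where SNHG18 had 0.04 ± 0.181 (adjusted p = 0.938); the difference between the 2 genes was not tested.

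ZNFX1, which starts 248 bases from ZFAS1, was higher in DTC (0.80 ± 0.142, adjusted p = 0.00018) and had 0.13 ± 0.142 in DTEC (adjusted p = 0.477). SLC3A2, an amino acid transporter subunit 188 bases from SNHG1, was lower in DTC (−0.36 ± 0.098, adjusted p = 0.00477) and in DTEC (−0.34 ± 0.098, adjusted p = 0.0102), as SNHG1 was. In DTC, 3 partners fell beside hosts that were called higher or not called. BARD1, the BRCA1 partner 518 bases from SNHG31, had −0.97 ± 0.141 (adjusted p = 3.02e-05) where SNHG31 was higher.

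RPS2, a ribosomal protein gene 99 bases from SNHG9, had −1.43 ± 0.136 (adjusted p = 4.18e-07), and TRAF7, 340 bases from SNHG19, had −1.08 ± 0.123 (adjusted p = 2.33e-06), while SNHG9 had −0.55 ± 0.307 (adjusted p = 0.13) and SNHG19 −0.12 ± 0.331 (adjusted p = 0.758). ZBTB37, 800 bases from GAS5, was not called (−0.15 ± 0.178 in DTC, adjusted p = 0.486). The libraries were stranded, but the strand setting of the counting is not given in the sources used here, so reads of overlapping partners may have been shared.

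In GENCODE 29, 17 of the 31 members overlap a protein-coding gene, and 5 do so on the same strand. SNHG3 overlaps RCC1, the exchange factor of Ran. RCC1 fell from 202 ± 3.27 CPM in untreated WT to 51.7 ± 5.29 in DTC (−1.97, edgeR adjusted p = 2.3e-09) while SNHG3 had 19 ± 1.16 and 15.2 ± 3.55 (−0.32 ± 0.142, adjusted p = 0.0608). SNHG20 overlaps SEC14L1, which had 0.06 in DTC (adjusted p = 0.644). SNHG4 shares its strand with MATR3, an RNA-binding nuclear matrix gene with 2 identifiers in the table, which had −1.15 and −1.36 in DTC (adjusted p = 3.09e-06 and 0.0022). For SNHG3, SNHG4, SNHG14, SNHG17 and ZFAS1 none of the 12 estimated counts was whole as deposited, as arises when reads fitting several genes are shared out, so their levels are less certain than those of SNHG29, SNHG11 or SNHG18, for which all 12 were whole. SNHG14 and SNHG28 also overlap a gene on the same strand, SNRPN and VSIG8.

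The starts of the members were read because host RNAs and ribosomal protein mRNAs share a pyrimidine-rich start. RefSeq windows on GRCh38.p14, from 250 bases before to 50 bases after the annotated start, were found for 27 of the 31 members, the other 4 being SNHG6, SNHG9, SNHG15 and SNHG25. A run of at least 8 consecutive C or T bases on the gene strand, overlapping the stretch from 10 bases before to 20 bases after the start, was present in 8 of 27 (29.6%), against 18.3% of all 35116 promoters and 74.1% of 85 ribosomal protein promoters. The E-box CACGTG, which reads the same on both strands, lay in 2 windows (7.41%), those of SNHG7 and SNHG30, against 7.26% of all promoters. A start at C followed by at least 4 pyrimidines, a feature chosen after values were seen, was present in 7 members (25.9%), against 4.07% of all promoters and 56.5% of ribosomal protein promoters.

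Windows of 6 members are shown, 25 bases before and 25 after the first transcribed base, to set 4 members with such a run beside 2 without it. Capitals mark the longest run of C or T near the start. In order, the positions are chr5:139274076-139274125 (plus), chr1:28581849-28581898 (minus), chr5:9546175-9546224 (plus), chr6:31834891-31834940 (plus), chr1:173869021-173869070 (minus) and chr20:38435304-38435353 (minus).
SNHG4: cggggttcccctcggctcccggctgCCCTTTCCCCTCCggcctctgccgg
SNHG12: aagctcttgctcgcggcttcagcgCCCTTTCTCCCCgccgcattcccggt
SNHG18: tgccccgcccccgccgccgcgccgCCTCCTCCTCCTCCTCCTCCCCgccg
SNHG32: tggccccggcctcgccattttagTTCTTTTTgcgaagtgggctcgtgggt
GAS5: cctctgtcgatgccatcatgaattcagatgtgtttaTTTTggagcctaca
SNHG17: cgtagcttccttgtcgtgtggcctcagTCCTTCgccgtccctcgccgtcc
The run is 13 bases long in SNHG4, 12 in SNHG12, 22 in SNHG18 and 8 in SNHG32, and 4 and 6 bases in GAS5 and SNHG17. SNHG18 and SNHG32 were higher in DTC, SNHG4 was lower, and SNHG12 was not called there. The GENCODE 29 starts of GAS5 (173868882), SNHG12 (28583132) and SNHG32 (31834608) lie outside the RefSeq stretches shown, so for these 3 genes the letters describe only the RefSeq start. That of SNHG17 (38435353) is the first base of its stretch, 25 bases before the RefSeq start. Starts also differ for members not shown. Those of SNHG14 (24978583) and SNHG27 (131773302) lie beyond windows that end at 24823657 and 131764887. The shares above and the medians below rest on the RefSeq starts alone. Over the 8 tested members with a run of at least 8 the median log2 fold change was −0.33 in DTC and −0.39 in DTEC. Over the 18 without it the medians were 0.24 and 0.10. The split by a start at C followed by at least 4 pyrimidines went the other way in DTC. The 7 tested members with that start had medians of 0.24 in DTC and 0.07 in DTEC, and the 19 without it −0.17 and 0.06. These medians are a description with no test.

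Genes of the proteins that bind snoRNAs were lower throughout in DTC, where 33.3% of all genes were called lower. For the counts of the lists below, the shares over all genes were 34% higher in DTC, 26% higher and 26.3% lower in DTEC against untreated WT, and 28.8% higher and 26.6% lower in DTEC against DTC. All 4 box C/D core genes were lower in DTC (median −1.79), among them FBL, the methyltransferase fibrillarin (−2.72 ± 0.115, 6.59-fold lower, edgeR adjusted p = 2.13e-10), and NOP56 (−1.99 ± 0.09, adjusted p = 3.34e-10). In DTEC all 4 were lower than untreated WT (median −0.89) and higher than DTC (median 0.58), where FBL differed by 1.94 ± 0.112 (adjusted p = 7.7e-09) and NOP58 by 0.59 ± 0.091 (adjusted p = 8.61e-05). NOP56 and NOP58 had −1.42 ± 0.088 (adjusted p = 2.76e-08) and −0.99 ± 0.091 (adjusted p = 8.36e-07) in DTEC against untreated WT.

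All 4 box H/ACA core genes were lower in DTC (median −1.09), among them DKC1, the pseudouridine synthase dyskerin (−2.06 ± 0.112, adjusted p = 1.76e-09), and GAR1 (−1.40 ± 0.174, adjusted p = 5.82e-06). In DTEC 3 of 4 were lower than untreated WT (median −0.53), with DKC1 at −1.11 ± 0.109 (adjusted p = 1.54e-06) and GAR1 at −0.55 ± 0.169 (adjusted p = 0.0134; 0.0706 without untreated WT 1 and 0.07 by library totals alone), and 2 of 4, DKC1 and GAR1, were higher than in DTC (0.96 ± 0.109 and 0.85 ± 0.173).

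Of 12 snoRNP assembly and transport genes, 10 were lower and 1 was higher in DTC (median −1.17). NOLC1, the nucleolar and Cajal body chaperone, had −1.97 ± 0.136 (edgeR adjusted p = 1.65e-08) and RUVBL1, a chaperone ATPase, −1.65 ± 0.095 (adjusted p = 3.26e-09); the gene called higher was ZNHIT3, chosen after its value was seen (0.54 ± 0.213, adjusted p = 0.0374). In DTEC 9 were lower than untreated WT (median −0.44), with NOLC1 at −0.91 ± 0.132 and RUVBL1 at −0.91 ± 0.093, and 9 were higher than in DTC (median 0.65), with NOLC1 at 1.05 ± 0.133 and the cap hypermethylase TGS1 at 1.02 ± 0.133.

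Nonsense-mediated decay factors, which degrade many host RNAs, were lower in DTC in 13 of 14 cases (median −0.77), with the exon junction protein MAGOH at −1.30 ± 0.124 (edgeR adjusted p = 4.12e-07). In DTEC 9 of 14 were lower than untreated WT (26.3% of all genes; median −0.44), with EIF4A3 at −0.68 ± 0.095 and SMG5 at −0.65 ± 0.107, and 11 were higher than in DTC (28.8% of all genes; median 0.38), with the kinase SMG1 at 0.78 ± 0.193 and MAGOH at 0.76 ± 0.124. Their part in the levels of the host genes was not tested.

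Protein-coding genes that also carry snoRNAs were lower in DTC in 14 of 18 cases and higher in 2 (median −1.15). NCL, the nucleolar protein nucleolin, had −2.16 ± 0.152 (edgeR adjusted p = 1.94e-08). DKC1 and NOP56 of the core lists are also on this list. The 2 called higher, named after their values were seen, were EIF4A2 (0.77 ± 0.121, adjusted p = 5.48e-05) and TPT1 (0.65 ± 0.242, adjusted p = 0.029). In DTEC 10 were lower than untreated WT (median −0.48), NOP56 and the chaperone HSPA8 (−1.30 ± 0.108) most, and against DTC 12 were higher and 1 lower (median 0.70), NCL (1.08 ± 0.147) and EEF2 (1.03 ± 0.134) most. In TDP1 KO the single call was TAF1D (−0.62 ± 0.133, edgeR adjusted p = 0.0174). That call was lost without any 1 library other than untreated WT 2 (adjusted p 0.0564 to 0.0805).

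The other 5′ TOP translation genes, whose mRNAs begin with a pyrimidine run, were lower in DTC in 15 of 19 cases and higher in 1 (median −0.71). HNRNPA1 had −1.46 ± 0.107 (edgeR adjusted p = 2.98e-08) and NPM1 −1.44 ± 0.14 (adjusted p = 4.96e-07). EEF2, EEF1B2, RACK1 and TPT1, the gene called higher, are also on the list of coding hosts, so these lists are not separate sets. In DTEC 3 were higher and 2 lower than untreated WT (median 0.04), with EIF4B at 0.64 ± 0.111 and NPM1 at −0.92 ± 0.138, and 16 were higher than in DTC (median 0.68), with EIF4B at 1.62 ± 0.114 and HNRNPA1 at 1.46 ± 0.107. Of 82 cytosolic ribosomal protein genes, 38 were lower and 2 higher in DTC (median −0.44); the 2 higher were the paralogues RPS27L, a p53 target (2.26 ± 0.301, adjusted p = 2.68e-05), and RPL22L1 (1.52 ± 0.275, adjusted p = 0.00034). In DTEC 11 of 82 (13.4%) were called against untreated WT, 6 higher and 5 lower (median 0.06), where 52.3% of all genes were called, with the paralogues RPL39L at −1.25 ± 0.226 and RPL26L1 at −0.94 ± 0.241, and against DTC 44 were higher and 4 lower (median 0.48), with RPL3 at 1.37 ± 0.102 and RPS27L at −1.91 ± 0.297.

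**Figure D5:**
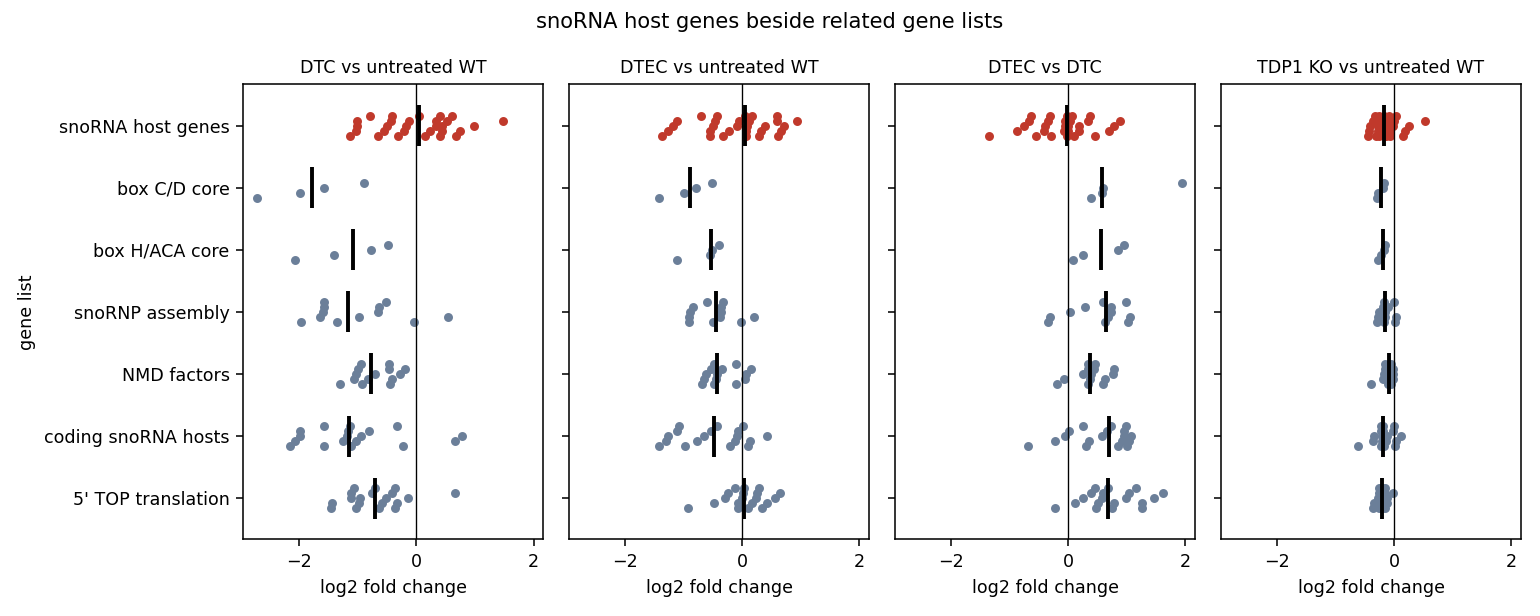
Log2 fold change (x axis) of each gene (points) of the snoRNA host genes and 6 related lists (rows), with the list median as a black bar, in the 4 comparisons. In DTC the host gene median lies at 0.04 and those of the related lists between −0.71 and −1.79.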

How the data were processed

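Polyadenylated RNA of 12 PC9 libraries was sequenced with a stranded kit. The deposited values were expected counts per Ensembl gene; per the submitters' processing notes the tools were RSEM 1.3.1, Bowtie2 2.5.2 and DESeq2 1.40.2 on GRCh38, while the annotation release and strand setting are not given in the sources used here. The table was taken to be unscaled from its totals, 25572691 to 38373679 per library. Counts were rounded. Symbols came from a table of gene names (62700 of 62754 identifiers), positions from GENCODE 29, and sequences from GENCODE 29 and RefSeq; GENCODE 29 gives the symbol SNHG28 to a second, protein-coding gene, which was not used.

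All 12 libraries were fitted in edgeR 4.0.16 (R 4.3.3; TMM scaling, its default count filter, robust quasi-likelihood test), and p-values were Benjamini-Hochberg adjusted over 17115 genes with a threshold of 0.05. The same steps were tested on simulated data. An exact test of 3 against 3 libraries cannot go below a two-sided p of 0.1, so single genes were not permuted. Intervals are 95%. Alternatives were other scalings and filters, DESeq2 1.42.0, a replicate block, the compared libraries alone, and leaving out each library.

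The members and gene lists were chosen with earlier results of these data known. Every member is named; values per library are given for the 8 with the highest mean CPM and, per comparison, for up to 3 called members in each direction with the largest change and at least 1 CPM; each list is represented by up to 2 called genes with the largest change. Some genes that these rules would name are not reported here.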

Additional observations from a re-analysis of the deposited data

Results flagged for a closer look

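Levels differed between the erlotinib groups, by a test of DTEC against DTC, for the members and list genes that follow. They are given as log2 differences of DTEC from DTC, for the members with the edgeR adjusted p. Members higher in DTEC were SNHG21 (0.89, adjusted p = 0.0228), SNHG16 (0.78, adjusted p = 2.54e-05), DANCR (0.70, adjusted p = 0.000168) and SNHG7 (0.33, adjusted p = 0.0329). Members lower in DTEC were SNHG12 (−1.34, adjusted p = 1.21e-05), SNHG26 (−0.76, adjusted p = 0.000366), SNHG18 (−0.67, adjusted p = 0.00541), SNHG20 (−0.63, adjusted p = 0.0138), SNHG32 (−0.39, adjusted p = 0.0245) and SNHG15 (−0.35, adjusted p = 0.0429). SNHG21, SNHG7, SNHG32 and SNHG15 lost the call when single libraries were left out.

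Among proteins that bind, assemble or decay snoRNAs and their hosts, FBL (1.94), NOP58 (0.59), DKC1 (0.96), GAR1 (0.85), NOLC1 (1.05), TGS1 (1.02), SMG1 (0.78) and MAGOH (0.76) were higher in DTEC than in DTC. Of the coding hosts and translation genes, NCL (1.08), EEF2 (1.03), HNRNPA1 (1.46), EIF4B (1.62) and RPL3 (1.37) were higher and RPS27L (−1.91) was lower. In all 24 cases DTEC, the expanded cells at 28 days, was set against DTC at 7 days. Time with erlotinib and expansion of the cells cannot be told apart in this design.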

How the results depend on the processing

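Of 35 calls of members, 20 held in every alternative, 15 were lost in at least 1 and 0 reversed. By library totals alone and by upper quartiles the members' median was 0.21 and 0.16 for DTEC against untreated WT and −0.20 and −0.19 for DTEC against DTC, with the medians of all genes at 0.19, 0.13, −0.20 and −0.18. With 1 library left out, the medians ran from −0.11 (without DTC 2) to 0.27 (without DTC 1) for DTC, from −0.04 to 0.03 for DTEC, from −0.25 (without DTC 1) to 0.15 (without DTC 2) for DTEC against DTC, and from −0.19 to −0.11 for TDP1 KO. The counts of calls then ran from 12 to 19 for DTC, from 7 (without untreated WT 3) to 10 for DTEC, from 8 to 11 for DTEC against DTC, and stayed at 0 for TDP1 KO. With the compared libraries alone, 7 members were called in TDP1 KO. In DTEC against untreated WT the calls gained that way were SNHG29, ZFAS1, EPB41L4A-AS1 and SNHG18 higher and SNHG3 lower.

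With the replicate block the member calls numbered 15 in DTC, 13 in DTEC, 11 in DTEC against DTC and 0 in TDP1 KO. With the block 68.8% of all genes were called in DTC. Without it the shares of all genes were 67.3% in DTC, 52.3% in DTEC, 55.4% in DTEC against DTC and 4.31% in TDP1 KO. Pairing of the libraries by replicate number was weak at most. Deviations of libraries with the same number correlated at −0.03 to 0.179, over 0.1 in 4 of 18 pairs. Those of libraries with different numbers correlated at −0.187 (DTC 1 with DTEC 3) to 0.118 (DTC 2 with DTEC 3). Depth limits the members of about 1 CPM: SNHG9, SNHG21, SNHG28 and SNHG31.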
